A study of Mus musculus with 4 samples.

Results

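The last step of a stepwise culture of primary mouse hepatocytes toward insulin-producing cells was examined, by setting stage S3 (7 days of nicotinamide in medium free of growth factors) against stage S2 (retinoic acid with insulin, transferrin and selenium). Every gene with at least 1 CPM (counts scaled to library size, the usual unit of depth-adjusted expression) in S3 or S2 was a member, which gave 13982 of the 30138 genes in the table. The study sequenced total RNA of 4 consecutive stages, S0 to S3, as 1 library per stage, to compare protein-coding and long non-coding transcripts along the protocol. Malat1, a long non-coding RNA, miR-124-3p, a microRNA, and phosphoinositide 3-kinase (PI3K) are named in its title.

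S3 cells had received 10 mM nicotinamide for 7 days in medium lacking basic fibroblast growth factor (bFGF) and epidermal growth factor (EGF). S2 cells had received 1X insulin-transferrin-selenium supplement (ITS) and retinoic acid, at a dose labelled 2 mM, for 7 days. Both stages had earlier passed through 5-azacytidine, an inhibitor of DNA methylation (48 h, labelled 5 mM), and trichostatin A, an inhibitor of histone deacetylases (100 nM, 24 h). The base medium of S0 held 2% knockout serum, 20 ng/ml bFGF and 20 ng/ml EGF in place of the 10% fetal bovine serum used for growth. The labels name only the S3 medium as free of bFGF and EGF. They do not say whether the S2 medium held these factors, nor whether ITS and retinoic acid were kept in S3. Nicotinamide, any change in growth factors or in retinoic acid between the media, the further 7 days and a difference between 2 cultures cannot be told apart. The sources used here give no strain, age, number or pooling of the mice.

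Nicotinamide is a form of vitamin B3. Cells turn it into NAD through the salvage enzyme Nampt, or methylate it for excretion through Nnmt, and at millimolar concentrations it inhibits enzymes that split NAD, among them sirtuins and poly(ADP-ribose) polymerases. EGF and bFGF bind receptor tyrosine kinases that signal through the kinases ERK and AKT and are known to keep cultured cells dividing. Retinoic acid binds nuclear receptors that switch on their own set of genes, including Cyp26a1, whose product degrades retinoic acid. Cultured hepatocytes are known to lose plasma protein and drug metabolism genes, and to answer inflammatory signals by making acute phase proteins.

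Reads assigned to genes numbered 23633176 in S3 and 22944047 in S2. Counts were scaled to CPM with TMM factors, and each ratio of S3 over S2 is given with its exact 95% interval in parentheses, which covers counting error only. A gene was called higher or lower when that whole interval lay beyond 2-fold. No p-value can be given with 1 library per stage. Mitochondrially encoded genes took 2.96% of the reads in S3 and 1.88% in S2. The rule just took in genes with 24 reads in S3 (1.02 CPM) or 22 reads in S2 (1.00 CPM), and just left out genes with 23 reads in S3 (0.982 CPM) or 21 reads in S2 (0.956 CPM).

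Of the 13982 genes, 557 were higher in S3 (3.98%), 165 were lower (1.18%) and 13260 were neither. The median log2 ratio over all genes was 0.00, and its 10th and 90th percentiles were -0.55 and 0.79. The median fold was 3.88 among the higher genes and 3.54 among the lower ones, and 54 higher and 13 lower genes differed more than 10-fold. The filter had a share in these counts, since 130 of the higher genes were under 1 CPM in S2 and 47 of the lower genes were under 1 CPM in S3, so their direction was fixed once they were included. The plot of log2 ratio by level shows called genes from the lowest to the highest read levels.

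**Figure D1:**
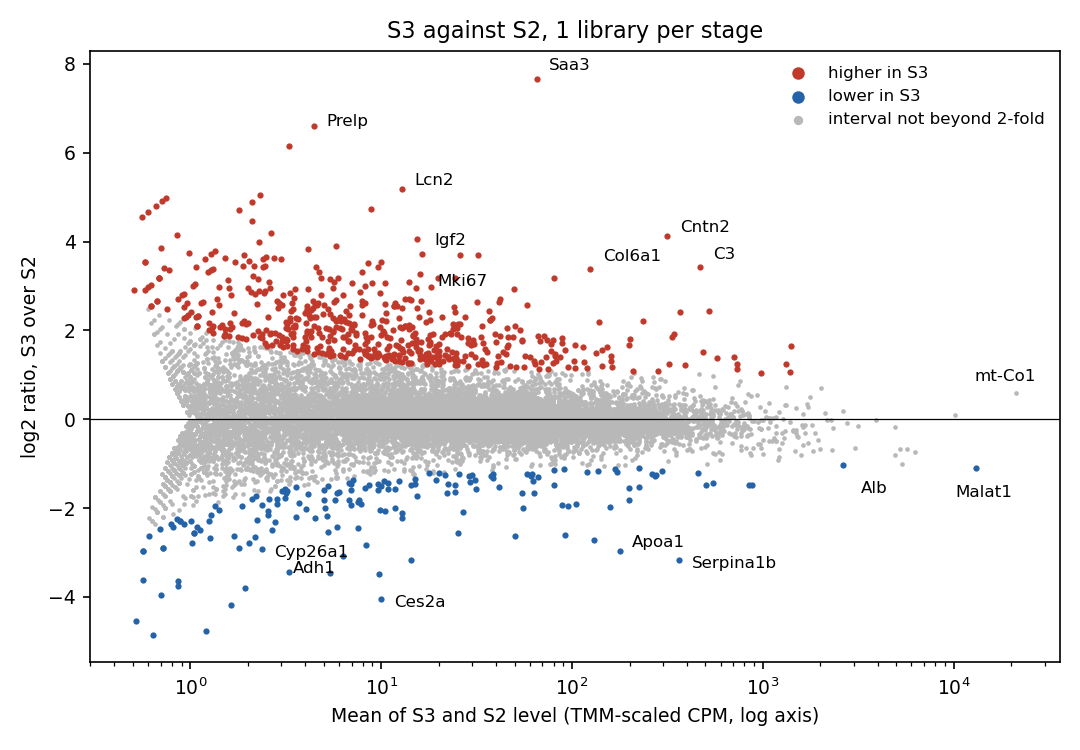
Each point is 1 of the 13982 genes. The horizontal axis is its mean level over S3 and S2 (TMM-scaled CPM, log axis) and the vertical axis its log2 ratio of S3 over S2. The 557 genes higher in S3 are red, the 165 lower genes blue and the remaining 13260 grey. Saa3 lies highest at 203-fold, and Malat1 is the lower gene with the most reads.

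Among the 15 higher genes whose intervals lay farthest from no change, Saa3, serum amyloid A3, an acute phase protein made by liver and other cells, had 3034 reads in S3 and 14 in S2. Prelp, a proteoglycan of the extracellular matrix, had 207 reads in S3 and 2 in S2, a 97.0-fold difference (26.5 to 807). Lcn2, the iron-siderophore binding protein lipocalin 2, stood at 24.9 CPM in S3 and 0.683 CPM in S2, 36.4-fold higher (21.9 to 65.5). Ehf, an ETS family transcription factor of epithelia, had 84 reads in S3 and 0 in S2, and was at least 26.3-fold higher against a floor of 3 reads.

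Cntn2, a neuronal cell adhesion protein, stood at 598 CPM in S3 and 34.5 CPM in S2, 17.3-fold higher (16.1 to 18.7). Its level was 0.636, 23.4, 34.5 and 598 CPM from S0 to S3, so it was highest at the last stage. It was the only member called among 14 measured neuronal markers, and Ncam1, which had the next most reads, stood at 115 CPM in S3 and 234 CPM in S2, with an interval of 1.93 to 2.12-fold lower. Foxj1, the transcription factor of motile cilia, was at 17 CPM in S3 and 0.637 CPM in S2, 26.7-fold higher (15.7 to 49.2). Rspo1, a secreted enhancer of Wnt signalling, was at 28.9 CPM in S3 and 1.73 CPM in S2, 16.7-fold higher (12.1 to 23.8). The other members of this group were the fatty acid hydroxylase gene Cyp4a12a (71.3-fold), Gm14401 (32.8-fold), the neuronal adhesion gene Dscaml1 (29.7-fold), Igf2, Vat1l, C3, Col6a1 and Col6a2, of which Cyp4a12a, Gm14401 and Dscaml1 had 2 or 3 reads in S2.

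The 15 lower genes farthest from no change included the alpha-1-antitrypsin genes Serpina1a, Serpina1b, Serpina1c and Serpina1d, the apolipoprotein gene Apoa1, the alcohol dehydrogenase gene Adh1, the drug-metabolising cytochrome genes Cyp3a13 and Cyp3a25, and the carboxylesterase gene Ces2a. Ces2a stood at 1.15 CPM in S3 and 18.9 CPM in S2, 16.4-fold lower (11.1 to 25.2). In the same set, Lgr6, a receptor for R-spondins, was at 1.58 CPM in S3 and 17.8 CPM in S2, 11.2-fold lower (8.01 to 16.2). Acsbg1, an acyl-CoA synthetase, was 11-fold lower, Trpa1, an irritant-sensing ion channel, 14.0-fold lower, and Gcnt3, a mucin-glycan branching enzyme, 6.17-fold lower. The group was completed by 2 non-coding entries, the antisense gene A830036E02Rik (2 reads in S3 and 51 in S2) and the unannotated transcript MSTRG.19865 (0 reads in S3 and 38 in S2).

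The plot of gene lists sets functional and cell type lists side by side with the shares of all genes. Mitosis, chemokines, DNA replication, mesothelium and smooth muscle had the largest excess of higher over lower members in percent. Plasma proteins had the largest excess of lower members. The lists of liver transcription factors, immediate early genes, ERK targets, respiratory chain and ribosomal proteins held 0 higher members.

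**Figure D2:**
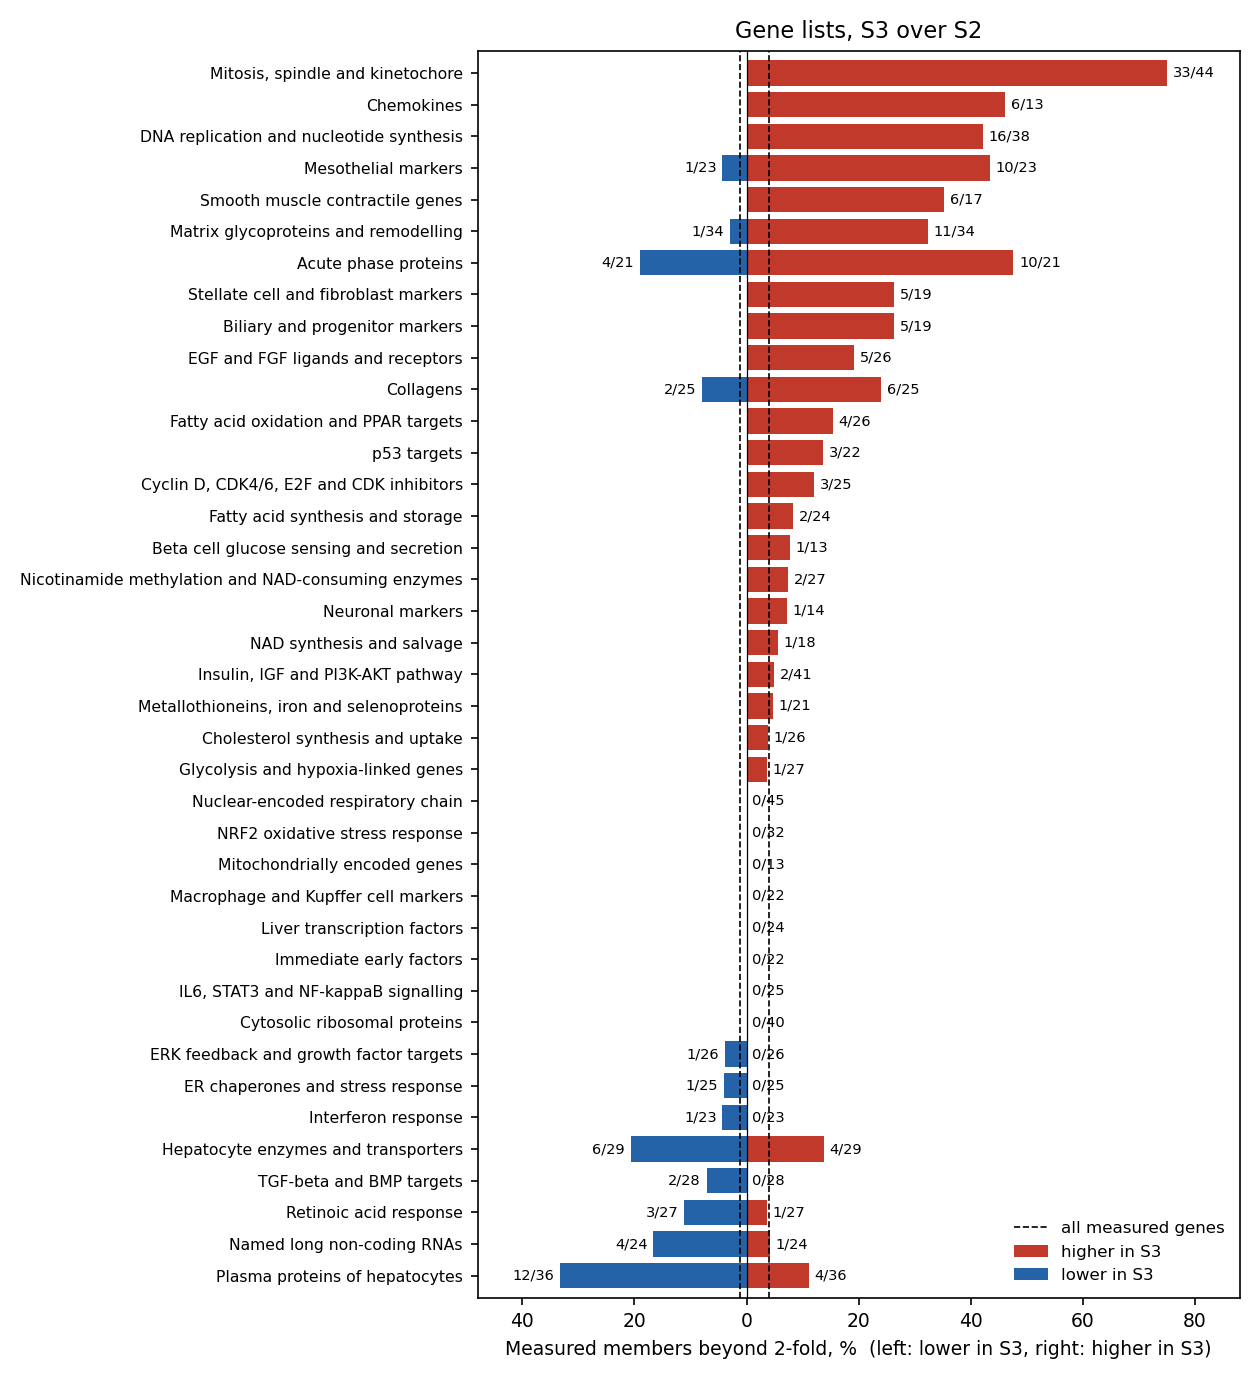
For each list with at least 10 measured members, the red bar gives the percentage of measured members higher in S3 and the blue bar the percentage lower, with the counts beside the bars. Dashed lines mark the shares over all 13982 genes, 3.98% higher and 1.18% lower. Mitosis has the longest red bar (33 of 44) and plasma proteins the longest blue bar (12 of 36).

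Cell division genes formed the largest coherent group among the higher genes. Of 44 measured mitosis, spindle and kinetochore genes, 33 were higher in S3, 0 were lower, and all 44 had a ratio above 1. Their median was 4.07-fold, against a median log2 ratio of 0.00 over all genes, and their summed level was 922 CPM in S3 and 286 CPM in S2. Of the 33, 3 were under 1 CPM in S2. In bulk RNA, more dividing cells and more of these transcripts per dividing cell cannot be told apart.

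Plk1, the kinase that drives entry into and passage through mitosis, stood at 8.37 CPM in S3 and 0.774 CPM in S2, 10.8-fold higher (6.58 to 18.9). Mki67, the proliferation antigen Ki-67, stood at 73.0 CPM in S3 and 11.2 CPM in S2. Top2a, the topoisomerase that untangles replicated chromosomes, stood at 99.9 CPM in S3 and 16.8 CPM in S2, 5.96-fold higher (5.34 to 6.67). Among the mitotic cyclins, Ccna2 was 6.37-fold higher (5.14 to 7.97) and Ccnb1 6.14-fold higher (4.79 to 7.97). Members of the spindle checkpoint and its target, the anaphase-promoting complex, were also among the higher genes, with Bub1b at 13.7 CPM in S3 and 2.14 CPM in S2, Cdc20 at 26.3 CPM in S3 and 4.64 CPM in S2, and Ube2c at 13.6 CPM in S3 and 1.87 CPM in S2.

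DNA replication genes followed with smaller ratios. Of 38 measured members, 16 were higher and 0 lower, with a median of 2.18-fold and a summed level of 1202 CPM in S3 and 546 CPM in S2. All 6 genes of the MCM2 to MCM7 helicase, which unwinds DNA at replication forks, were higher, between 2.65-fold for Mcm2 and 3.64-fold for Mcm5. Rrm2, the regulated subunit of ribonucleotide reductase, stood at 54.4 CPM in S3 and 12.7 CPM in S2, 4.27-fold higher (3.75 to 4.87). Uhrf1, which brings the maintenance DNA methyltransferase to newly copied DNA, stood at 32.4 CPM in S3 and 4.1 CPM in S2, 7.90-fold higher (6.34 to 9.94). The members with the most reads, Rrm1 (268 CPM in S3 and 138 CPM in S2) and Pcna (97.2 CPM in S3 and 54.3 CPM in S2), had ratios of 1.95 and 1.79 and were not called.

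Regulators of the step into S phase mostly had ratios above 1 that were not called. The 25 genes of cyclin D, its kinases, E2F factors and kinase inhibitors had a median of 1.32-fold, and 24 had a ratio above 1. Among them 3 were higher and 0 lower, against 3.98% and 1.18% of all genes. These were Ccne2 (3.11-fold, 2.52 to 3.85) and the atypical repressors E2f7 (3.86-fold, 2.48 to 6.24) and E2f8 (7.73-fold, 3.70 to 18.7). Ccnd1, the cyclin D gene known to respond to growth factors, stood at 523 CPM in S3 and 331 CPM in S2, a ratio of 1.58 (1.53 to 1.63). Ccnd2 stood at 1449 CPM in S3 and 1152 CPM in S2. Neither D cyclin gene was called.

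Replication-dependent histones, whose messages are made in S phase, were grouped after their values were seen. Of 59 measured genes with a symbol starting in Hist, 32 were higher and 0 lower, and their summed level was 1658 CPM in S3 and 1094 CPM in S2. Hist1h1b stood at 26.9 CPM in S3 and 3.46 CPM in S2, 7.77-fold higher (6.12 to 9.99), whereas Hist1h1c, another linker histone, stood at 242 CPM in S3 and 261 CPM in S2. Most of the cluster lies on chromosome 13, where 31 of 51 were higher. This cluster also fills much of that chromosome's count, since 51 of 569 measured genes of chromosome 13 were higher (8.96%). Histone copies are near-identical, and reads shared among them make single values uncertain.

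Genes of homologous recombination and interstrand crosslink repair, also chosen after their values were seen, were among the higher genes. Brca1 stood at 24.8 CPM in S3 and 7.47 CPM in S2, 3.33-fold higher (2.79 to 3.98), with its partner Bard1 6.16-fold and its helicase Brip1 5.94-fold higher. The Fanconi anaemia pair Fancd2 and Fanci were 4.31-fold and 4.73-fold higher, and the nuclease gene Exo1 6.38-fold.

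The levels at all stages place this difference. The median level of the 33 mitosis genes was 53.5, 9.61, 3.73 and 16.3 CPM from S0 to S3, and all 33 were higher in S0 than in S3. Mki67 stood at 518, 33.1, 11.2 and 73.0 CPM from S0 to S3. The 16 replication genes had medians of 76.3, 19.4, 8.58 and 30.3 CPM, again with all 16 above S3 in S0. The cell division genes in S3 thus lay above S2 and below the starting culture.

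The promoters of these genes are shown because mitotic genes are known to carry a CHR element (cell cycle genes homology region), often together with CCAAT boxes, and replication genes to carry E2F sites. The windows run from 250 bases before to 50 bases after the annotated start, from RefSeq on build GRCm38.p6, and are printed 5′ to 3′ on the gene's strand. In Plk1 (chr7:122159185-122159484, plus strand) and Mki67 (chr7:135716330-135716629, minus strand) the capitals mark TTTGAA (CHR) and CCAAT on either strand.
Plk1: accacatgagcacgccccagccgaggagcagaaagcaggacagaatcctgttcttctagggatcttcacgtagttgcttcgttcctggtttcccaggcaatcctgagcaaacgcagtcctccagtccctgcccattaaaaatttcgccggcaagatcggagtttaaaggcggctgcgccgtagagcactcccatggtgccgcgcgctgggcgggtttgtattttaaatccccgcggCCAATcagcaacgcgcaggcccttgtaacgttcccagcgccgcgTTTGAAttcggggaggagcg
Mki67: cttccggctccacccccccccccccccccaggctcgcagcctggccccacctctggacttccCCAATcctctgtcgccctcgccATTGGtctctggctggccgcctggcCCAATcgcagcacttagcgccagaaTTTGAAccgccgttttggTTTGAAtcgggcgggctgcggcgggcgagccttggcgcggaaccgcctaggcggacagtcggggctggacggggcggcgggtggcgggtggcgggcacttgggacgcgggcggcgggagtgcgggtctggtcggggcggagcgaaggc
In Mcm6 (chr1:128359656-128359955, minus strand), a helicase gene that was 3.63-fold higher (3.21 to 4.12), the capitals mark TTTGGCGC (E2F) and CCAAT on either strand.
Mcm6: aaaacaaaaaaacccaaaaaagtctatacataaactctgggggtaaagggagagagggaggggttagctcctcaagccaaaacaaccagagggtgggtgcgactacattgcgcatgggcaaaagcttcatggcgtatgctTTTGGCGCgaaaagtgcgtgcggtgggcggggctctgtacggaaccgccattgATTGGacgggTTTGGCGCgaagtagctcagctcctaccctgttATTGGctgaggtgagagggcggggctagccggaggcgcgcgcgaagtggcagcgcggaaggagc

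Each motif was searched on both strands and counted on its own, so matches of different motifs may share bases. A promoter was matched for 37 of the 44 mitosis genes. TTTGAA lay in 26 of the 37 (70.3%), against 20.2% of all 27025 promoters in the table, and CCAAT lay in 75.7%, against 41.1%. Only 10705 of the 13982 measured genes (76.6%) had a promoter in the table, under the 80% set for such a share, so the shares of measured genes are given as values only, at 14.3% for TTTGAA and 43.0% for CCAAT. Of the 31 replication genes with a promoter, 14 held TTCCCGC (45.2%, against 5.29% of all promoters), and 19.4% held TTTGGCGC, against 0.585%. Of the measured genes with a promoter, 9.61% held TTCCCGC and 1.08% held TTTGGCGC. Within the lists, TTTGAA lay in 21 of 30 higher mitosis genes and in 5 of 7 that were not called, and TTCCCGC in 7 of 13 higher and 7 of 18 uncalled replication genes. A match describes the letters in the window and is not evidence of binding.

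Acute phase genes moved in both directions. Of 21 measured members, 10 were higher and 4 lower, against 3.98% and 1.18% of all genes. The median was 2.84-fold higher, but the summed level was lower, 3857 CPM in S3 and 4498 CPM in S2. Of the 10 higher members, 3 were under 1 CPM in S2. The interval plot gives 20 of the members.

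**Figure D3:**
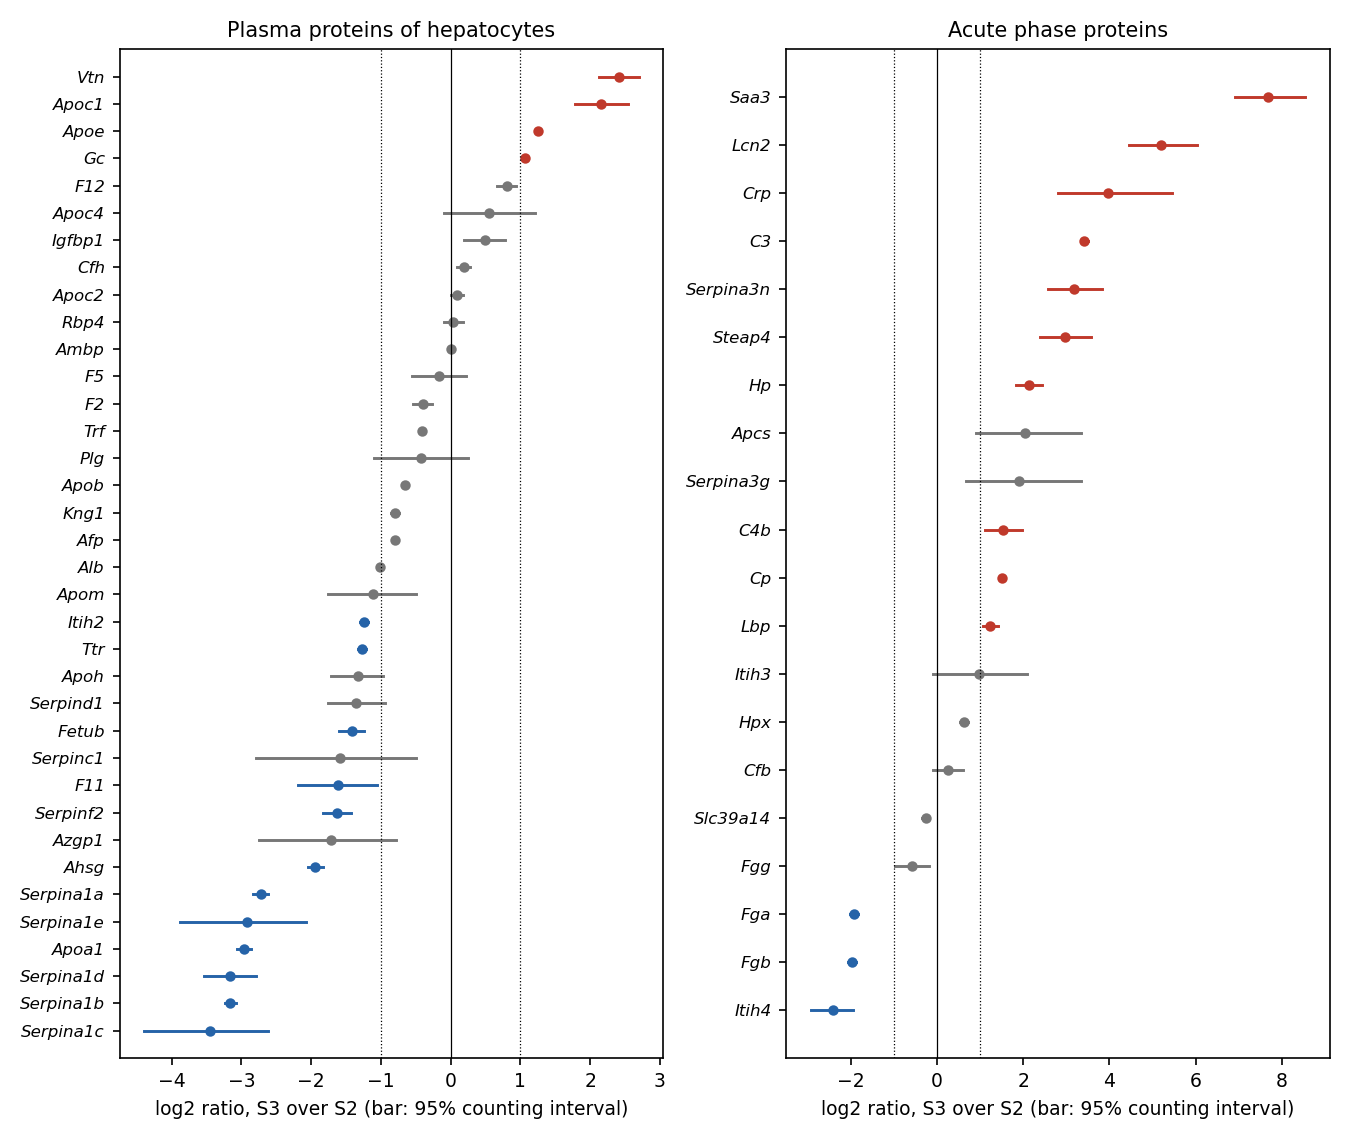
Points give the log2 ratio of S3 over S2 for each measured plasma protein gene (left, 36 genes) and for 20 of the acute phase genes (right), and bars the 95% counting interval. Red marks genes higher in S3, blue genes lower and grey genes that were neither, with dotted lines at 2-fold. The Serpina1 genes and Apoa1 lie at the low end of the left panel, and Saa3, Lcn2 and Crp at the high end of the right one.

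C3, the central protein of complement, stood at 858 CPM in S3 and 80.1 CPM in S2, 10.7-fold higher (10.2 to 11.3). Cp, the copper-carrying ferroxidase ceruloplasmin, stood at 714 CPM in S3 and 251 CPM in S2, 2.84-fold higher (2.76 to 2.93). Crp (C-reactive protein, 15.8-fold), Serpina3n (9.01-fold), Steap4 (7.80-fold), Hp (haptoglobin, 4.38-fold), C4b (2.89-fold) and Lbp (2.36-fold) completed the 10. Saa3 stood at 25.6, 33.4, 0.637 and 130 CPM from S0 to S3, and Lcn2 at 2.40, 14.7, 0.683 and 24.9 CPM. Both were thus at their lowest in S2 and their highest in S3. Saa1, Saa2, Hamp and Hamp2 had 0 reads in both libraries, and the Saa genes are close paralogs whose reads can be shared.

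The lower acute phase members included fibrinogen. Fgb stood at 64.4 CPM in S3 and 253 CPM in S2, 3.92-fold lower (3.70 to 4.15), and Fga at 43.8 CPM in S3 and 166 CPM in S2, 3.78-fold lower (3.53 to 4.06). Fgg, the gene of the third chain, stood at 4.06 CPM in S3 and 6.01 CPM in S2 (1.48-fold lower, 1.13 to 1.95) and was not called. The 3 chains lie next to each other on chromosome 3, with 0 protein-coding genes between Fga and either partner. Itih4, an inter-alpha-trypsin inhibitor chain, was 5.36-fold lower (3.85 to 7.62).

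Chemokine genes were among the higher genes. Of 13 measured chemokines, 6 were higher and 0 lower, against 3.98% and 1.18% of all genes. Ccl2, which attracts monocytes, stood at 72.3 CPM in S3 and 19.9 CPM in S2, 3.64-fold higher (3.28 to 4.06). Cxcl1, which attracts neutrophils, stood at 4.27 CPM in S3 and 0.865 CPM in S2, 4.93-fold higher (3.00 to 8.54). The others were Ccl20 (3.58-fold), Cxcl10 (3.42-fold), Ccl7 (3.25-fold) and Cxcl16 (2.57-fold).

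Of 25 measured genes of interleukin 6, STAT3 and NF-kappaB signalling, 0 were higher and 0 lower, against 3.98% and 1.18% of all genes. Their median log2 ratio was 0.30, and 16 had a ratio above 1. These are transcript levels, and the part of these pathways in the chemokine result was not tested. Il6st, the shared receptor subunit gp130, stood at 364 CPM in S3 and 377 CPM in S2, and the kinase gene Jak1 at 296 CPM in S3 and 338 CPM in S2. Of 23 interferon response genes 0 were higher and 1 was lower, namely Rsad2, at 0.982 CPM in S3 and 3.78 CPM in S2 (3.85-fold lower, 2.40 to 6.40). Rsad2 was under 1 CPM in S3, so its direction was fixed once it was included. The 22 measured macrophage markers had 0 calls in either direction and a summed level of 892 CPM in S3 and 894 CPM in S2. Most of that sum was Lyz2, the macrophage lysozyme, at 520 CPM in S3 and 545 CPM in S2. Some of the others had ratios whose intervals lay above 1, such as the complement genes C1qa (8.54 CPM in S3 and 4.64 CPM in S2, 1.84, 1.44 to 2.36), C1qb (1.46, 1.07 to 2.01) and C1qc (1.54, 1.19 to 2.00) and the endotoxin co-receptor gene Cd14 (1.70, 1.53 to 1.88), and their part in the chemokine result was not tested. Cd68 stood at 67.8 CPM in S3 and 79.9 CPM in S2 and Adgre1 at 10.9 CPM in S3 and 8.47 CPM in S2. The Kupffer cell gene Timd4 had 0 reads in both, and Clec4f had 1 read in each. Of 20 lymphocyte and neutrophil markers 0 reached 1 CPM, with a summed level of 2.73 CPM in S3 and 2.50 CPM in S2, and Cd3d, Cd3g, Cd79b, Elane, Nkg7 and Retnlg had 0 reads in both.

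Plasma protein genes of hepatocytes were the list with the largest share of lower members. Of 36 measured members, 12 were lower and 4 higher, with a median log2 ratio of -0.90, and their summed level was 15346 CPM in S3 and 22732 CPM in S2. Of the 12 lower members, 2 were under 1 CPM in S3. Serpina1b, an alpha-1-antitrypsin gene, stood at 73.2 CPM in S3 and 653 CPM in S2, 8.92-fold lower (8.48 to 9.38). Serpina1a stood at 34.4 CPM in S3 and 227 CPM in S2, 6.61-fold lower (6.14 to 7.13). The Serpina1 genes are near-identical copies on chromosome 12, and all 5 measured copies were lower, between 6.61-fold and 10.9-fold. Reads may be split between them, which would make them move together, so the copies among the 12 lower members are not separate observations.

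Apoa1, the main protein of high-density lipoprotein, stood at 40.3 CPM in S3 and 315 CPM in S2, 7.81-fold lower (7.29 to 8.36). Ahsg, the circulating inhibitor of mineralisation fetuin-A, stood at 36.8 CPM in S3 and 141 CPM in S2, 3.84-fold lower (3.56 to 4.14). Ttr, the thyroxine and retinol-binding protein carrier transthyretin, stood at 159 CPM in S3 and 382 CPM in S2, 2.41-fold lower (2.31 to 2.50). Alb, albumin, stood at 3569 CPM in S3 and 7171 CPM in S2, a 2.01-fold lower level whose interval (1.99 to 2.03) crossed the 2-fold limit. Afp, the fetal counterpart of albumin, stood at 3615 CPM in S3 and 6283 CPM in S2, 1.74-fold lower (1.72 to 1.75).

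The 4 higher plasma protein genes were Vtn (vitronectin, 5.31-fold, 4.38 to 6.48), Apoc1 (4.44-fold, 3.44 to 5.80), Apoe and Gc. Apoe, which carries lipid remnants, stood at 1861 CPM in S3 and 781 CPM in S2, 2.38-fold higher (2.34 to 2.43). Gc, the vitamin D-binding protein, stood at 1877 CPM in S3 and 895 CPM in S2, 2.10-fold higher (2.06 to 2.13). Secreted liver proteins therefore did not move as a block. From S0 to S3, Apoa1 stood at 6.25, 203, 315 and 40.3 CPM and Serpina1b at 41.6, 1034, 653 and 73.2 CPM, as the stage plot shows for the 12 lower genes.

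**Figure D4:**
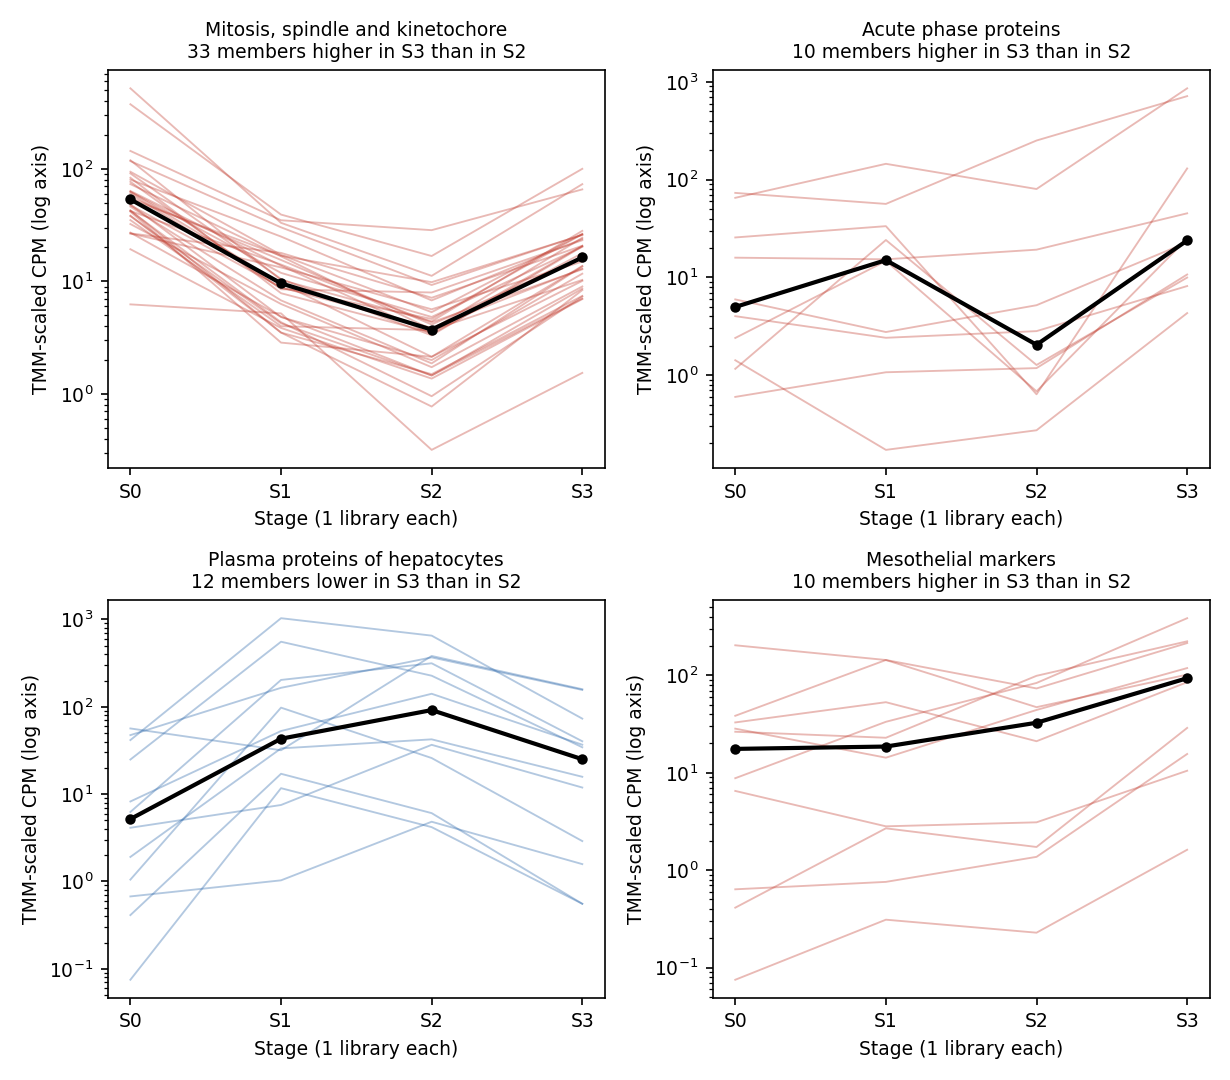
Each thin line is 1 gene at stages S0, S1, S2 and S3 (TMM-scaled CPM, log axis, 1 library each) and the thick black line is the median of the panel. The panels hold the 33 mitosis, 10 acute phase and 10 mesothelial genes higher in S3 than in S2 (red) and the 12 plasma protein genes lower in S3 (blue). The mitosis median is 53.5 CPM in S0, 3.73 CPM in S2 and 16.3 CPM in S3.

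Enzymes and transporters of hepatocytes were split. Of 29 measured members, 6 were lower and 4 higher, with a summed level of 1177 CPM in S3 and 1626 CPM in S2. Cyp3a13 stood at 25.8 CPM in S3 and 157 CPM in S2, 6.08-fold lower (5.57 to 6.64), and Cyp3a11 at 7.26 CPM in S3 and 43.1 CPM in S2, 5.94-fold lower (5.04 to 7.04). Adh1 was 8.53-fold lower (5.86 to 12.8), and Cps1, the first enzyme of the urea cycle, stood at 1.20 CPM in S3 and 4.46 CPM in S2, 3.73-fold lower (2.43 to 5.90). Cyp2a5 was 2.71-fold lower, and Glul, glutamine synthetase, 2.15-fold lower (2.06 to 2.24), a call that was lost without TMM scaling. The Cyp3a and Ces genes belong to families of close paralogs, so their single values are uncertain.

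The higher members included the glucose transporter gene Slc2a2 and Ugt2b5 (2.72-fold, 2.07 to 3.61). Among the 4 higher members, 2 were under 1 CPM in S2. Of 24 measured liver transcription factors, 0 were higher and 0 lower. Hnf4a, a nuclear receptor central to hepatocyte identity, stood at 163 CPM in S3 and 234 CPM in S2, 1.43-fold lower (1.37 to 1.5). Onecut2 stood at 192 CPM in S3 and 112 CPM in S2, a ratio of 1.72 (1.64 to 1.81).

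For the labelled cell type, primary hepatocytes, the markers Alb, Ttr, Apoa1, Hnf4a, Cps1 and Serpina1a were above 1 CPM in both libraries. This level does not establish the label, since other cell type markers passed it, such as Lyz2 (520 CPM) and Dcn (523 CPM) in S3. In S0, Alb, Hnf4a, Ttr, Serpina1a, Apoa1 and Cps1 stood at 234, 108, 56.5, 24.9, 6.25 and 0.150 CPM, and Lyz2 at 8936 CPM. Mesothelial markers were detected as well. Msln, mesothelin, stood at 446 CPM in S3 and 1247 CPM in S2, Upk1b at 913 CPM in S3 and 696 CPM in S2, and the mesothelial transcription factor Wt1 at 107 CPM in S3 and 75.5 CPM in S2. The libraries thus held transcripts known from mesothelium, and the share of cells that made them was not measured.

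Of 23 measured mesothelial markers, 10 were higher and 1 lower, with a median of 1.80-fold, and their summed level was 10870 CPM in S3 and 13948 CPM in S2. The sum went the other way because Clu and Krt8, with the most reads, stood at 4048 and 1539 CPM in S3 against 6455 and 2457 CPM in S2, and neither is particular to mesothelium. Beside Rspo1, the claudin gene Cldn15 was 11.4-fold higher (7.87 to 17.2), Muc16 7.13-fold (2.80 to 23.2), Gpm6a 4.62-fold (4.40 to 4.86), Gpc3 4.04-fold (3.65 to 4.48), Lrrn4 3.41-fold (2.59 to 4.52), Krt7 2.92-fold (2.76 to 3.09), Bnc1 2.70-fold (2.51 to 2.91), Upk3b 2.26-fold (2.15 to 2.37) and Podxl 2.17-fold (2.01 to 2.33). Msln itself was the lower one, 2.80-fold (2.74 to 2.86).

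Matrix genes were higher in part. Of 34 measured matrix glycoprotein and remodelling genes, 11 were higher and 1 lower, and of 25 collagen genes 6 were higher and 2 lower. Col6a1 stood at 227 CPM in S3 and 21.8 CPM in S2, 10.4-fold higher (9.46 to 11.4), and Col6a2 at 48.3 CPM in S3 and 3.73 CPM in S2, 12.9-fold higher (10.3 to 16.4). Their products form the microfibrillar collagen VI, and they are neighbours on chromosome 10 with 0 protein-coding genes between them. Col6a3, the gene of the third chain, stood at 2.18 CPM in S3 and 0.410 CPM in S2, 5.31-fold higher (2.59 to 12.3).

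Fibrillar collagen genes did not move alike. Col3a1 stood at 881 CPM in S3 and 163 CPM in S2, Col1a2 at 550 CPM in S3 and 236 CPM in S2 (2.33-fold higher, 2.25 to 2.40), and Col1a1 at 734 CPM in S3 and 854 CPM in S2 (1.16-fold lower, 1.14 to 1.19). Col14a1, of a collagen that sits on fibril surfaces, was 10.8-fold higher (7.66 to 15.6). Col11a1 stood at 87.3 CPM in S3 and 310 CPM in S2, 3.56-fold lower (3.39 to 3.74), and Col7a1, of anchoring fibrils, was 4.15-fold lower (3.28 to 5.29). The basement membrane gene Col4a1, the collagen gene with the most reads, stood at 3912 CPM in S3 and 3925 CPM in S2.

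Among other matrix genes, Timp3, an inhibitor of matrix metalloproteinases, stood at 2136 CPM in S3 and 684 CPM in S2, 3.12-fold higher (3.07 to 3.18). Mmp3, stromelysin 1, was 12.4-fold higher (6.31 to 27.8) and the protease gene Adamts1 4.32-fold (3.88 to 4.82). The proteoglycans Lum (4.19-fold), Bgn (3.76-fold) and Vcan (2.61-fold), the glycoproteins Tnc (3.48-fold) and Thbs2 (2.52-fold), and the proteases Adamts2 (2.41-fold) and Adamts5 (2.27-fold) were higher too. Fn1, fibronectin, stood at 2498 CPM in S3 and 1523 CPM in S2, a ratio of 1.64 (1.62 to 1.66). Mfap5, a microfibril protein, was the lower member (2.78-fold, 2.22 to 3.51).

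Markers of stellate cells, fibroblasts and smooth muscle are given beside the matrix genes, and their part in the matrix result was not tested. The lists are not independent, since Col1a1 and Col3a1 are also counted among the collagens and Dcn among the matrix glycoproteins. Of 19 measured stellate cell and fibroblast markers, 5 were higher and 0 lower, with a summed level of 5724 CPM in S3 and 5143 CPM in S2. Dcn, decorin, stood at 523 CPM in S3 and 146 CPM in S2, 3.59-fold higher (3.46 to 3.74), and Pdgfrb, the platelet-derived growth factor receptor of mural cells, at 84.3 CPM in S3 and 25 CPM in S2, 3.37-fold higher (3.07 to 3.71). Cd34 was 4.96-fold higher (4.17 to 5.93). Pdgfra, by contrast, stood at 60.3 CPM in S3 and 64.4 CPM in S2, and Lrat, the retinol-esterifying enzyme of stellate cells, at 4.14 CPM in S3 and 2.00 CPM in S2 (interval 1.43 to 3.02). Dpt had 0 reads in both.

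Of 17 smooth muscle contractile genes, 6 were higher and 0 lower, with a summed level of 5178 CPM in S3 and 4311 CPM in S2. Des, desmin, was 3.47-fold higher (2.84 to 4.26), Myh11, smooth muscle myosin, 3.29-fold (2.73 to 3.97) and Tagln, transgelin, 2.12-fold (2.04 to 2.20). Of 9 measured endothelial markers 0 were higher and 1 was lower, Tek, with 5 reads in S3 and 26 in S2. Tek was under 1 CPM in S3 (0.213 CPM), so its direction was fixed once it was included. The endothelial sum was 124 CPM in S3 and 119 CPM in S2, Erg had 0 reads in both, and Cdh5 had 6 reads in S3 and 4 in S2.

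Of 28 targets of transforming growth factor beta and bone morphogenetic proteins, 0 were higher and 2 lower, against 3.98% and 1.18% of all genes. They included Tgfbi, with 4 reads in S3 and 28 in S2 (7.47-fold lower, 2.61 to 29.3). Tgfbi was under 1 CPM in S3 (0.171 CPM), so its direction was fixed once it was included. Ctgf, a target of both this pathway and YAP, stood at 894 CPM in S3 and 1258 CPM in S2. Of the 28 targets, 15 had a ratio above 1, and the part of this pathway in the matrix result was not tested.

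Of 19 measured biliary and progenitor markers, 5 were higher and 0 lower. They were Dcdc2a (12.4-fold, 5.04 to 39.4), Anxa13 (5.58-fold, 3.57 to 9.10), the stem cell receptor gene Lgr5 (3.54-fold, 2.08 to 6.33), Krt7 and Prom1 (2.77-fold, 2.20 to 3.53). Among these 5, 2 were under 1 CPM in S2 (Dcdc2a at 0.228 CPM), so their direction was fixed once they were included. Krt19 stood at 74.0 CPM in S3 and 87.4 CPM in S2, Epcam at 15.7 CPM in S3 and 14.0 CPM in S2, and Sox9 at 8.32 CPM in S3 and 3.73 CPM in S2 (interval 1.71 to 2.92). Cftr had 6 reads in S3 and 11 in S2. Krt7 counts in the mesothelial list as well, so it does not separate the lineages.

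Genes of NAD metabolism, into which nicotinamide feeds, were examined next. Of 18 measured genes of NAD synthesis and salvage, 1 was higher and 0 lower, against 3.98% and 1.18% of all genes. Nampt, the rate-limiting salvage enzyme, stood at 73.8 CPM in S3 and 70.0 CPM in S2, a ratio of 1.05 (0.983 to 1.13). Nadk, which makes NADP from NAD, stood at 204 CPM in S3 and 284 CPM in S2. The higher member was Qprt, the enzyme that feeds quinolinate from tryptophan into NAD, at 5.25 CPM in S3 and 1.18 CPM in S2 (4.44-fold, 2.89 to 7.06).

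Of 27 genes that methylate nicotinamide or consume NAD, 2 were higher and 0 lower, against 3.98% and 1.18% of all genes. Both higher genes encode surface enzymes that split NAD. Bst1 stood at 147 CPM in S3 and 59.0 CPM in S2, 2.50-fold higher (2.34 to 2.67), and Cd38 at 47.9 CPM in S3 and 20.7 CPM in S2, 2.32-fold higher (2.08 to 2.59). Nnmt stood at 19.9 CPM in S3 and 17.8 CPM in S2 (0.977 to 1.28). Sirt1, the deacetylase that nicotinamide inhibits, stood at 21.6 CPM in S3 and 16.3 CPM in S2 (1.15 to 1.51), and Parp1 at 104 CPM in S3 and 88.5 CPM in S2 (1.11 to 1.25). The tankyrase genes Tnks and Tnks2 had ratios of 1.03 and 1.02, in opposite directions. These are transcript levels, and enzyme activity and NAD were not measured.

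Targets of ERK signalling, which the growth factors activate, mostly had ratios below 1 that were not called. Of 26 measured members, 0 were higher and 1 was lower, against 3.98% and 1.18% of all genes. Their median log2 ratio was -0.35, and 6 had a ratio above 1. The lower member was Dusp5, a phosphatase of nuclear ERK, at 36.8 CPM in S3 and 87.2 CPM in S2 (2.37-fold, 2.18 to 2.57). Dusp6, the cytoplasmic ERK phosphatase, stood at 219 CPM in S3 and 418 CPM in S2, 1.91-fold lower (1.85 to 1.98), just inside the limit. Epha2 stood at 320 CPM in S3 and 508 CPM in S2 (1.54 to 1.63-fold lower), while Spry4, a feedback inhibitor of these receptors, stood at 16.7 CPM in S3 and 17.1 CPM in S2. Of 22 immediate early genes, 0 were called in either direction, with Fosl2 at 247 CPM in S3 and 169 CPM in S2 and Klf6 at 245 CPM in S3 and 282 CPM in S2.

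Of 26 measured ligand and receptor genes of the list for EGF and FGF, which also holds Hgf, Met, Kit and genes of the PDGF and VEGF families, 5 were higher and 0 lower. Fgfr4, the main fibroblast growth factor receptor of hepatocytes, stood at 3.97 CPM in S3 and 0.364 CPM in S2, 10.9-fold higher (5.31 to 26.0). Fgf9 was 5.12-fold higher (3.85 to 6.91), Fgfr2 3.19-fold (2.81 to 3.63), Hgf, the hepatocyte growth factor and ligand of MET, 2.57-fold (2.11 to 3.14) and Fgf7, keratinocyte growth factor, 2.47-fold (2.11 to 2.90). Fgf2, the gene of the factor left out of the medium, stood at 723 CPM in S3 and 367 CPM in S2, a ratio of 1.97 (1.92 to 2.02). Egfr stood at 405 CPM in S3 and 406 CPM in S2.

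Of 41 genes of insulin, insulin-like growth factor and PI3K-AKT signalling, the pathway named in the title, 2 were higher and 0 lower. Igf2, a fetal growth factor, stood at 30.3 CPM in S3 and 2.28 CPM in S2, 13.3-fold higher (9.99 to 18.1). Igfbp6, a binding protein with preference for IGF2, stood at 232 CPM in S3 and 86.7 CPM in S2, 2.68-fold higher (2.54 to 2.82). H19, the imprinted long non-coding RNA next to Igf2 on chromosome 7, had 106 reads in S3 and 9 in S2, 11-fold higher (5.60 to 24.8). H19 was under 1 CPM in S2 (0.410 CPM), so its direction was fixed once it was included. Igf2r, which clears IGF2, stood at 680 CPM in S3 and 728 CPM in S2.

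The other title gene, Malat1, a nuclear long non-coding RNA, stood at 8340 CPM in S3 and 17866 CPM in S2, 2.14-fold lower (2.13 to 2.15). Its neighbour Neat1, the scaffold of paraspeckles, stood at 463 CPM in S3 and 1290 CPM in S2, 2.79-fold lower (2.73 to 2.85). Of 24 measured named long non-coding RNAs, 4 were lower and 1, H19, was higher. The others lower were Meg3, at 11.9 CPM in S3 and 32.8 CPM in S2 (2.76-fold, 2.40 to 3.18), and Mirg (2.88-fold, 2.01 to 4.18), from the same imprinted region, the call for Mirg being lost without TMM scaling. Among 658 annotated long non-coding genes 9 were higher (1.37%) and 14 lower (2.13%), and among 283 unannotated assembled transcripts 28 were higher (9.89%) and 6 lower (2.12%). miR-124-3p was not analysed here.

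Among 27 measured retinoic acid response genes, 3 were lower and 1 higher, against 1.18% and 3.98% of all genes. Their median log2 ratio was -0.22, and 10 had a ratio above 1. Cyp26a1, the target described above, stood at 2.05 CPM in S3 and 14.6 CPM in S2, 7.11-fold lower (5.24 to 9.84). From S0 to S3 it stood at 0, 0.0344, 14.6 and 2.05 CPM, so it was detected above 1 CPM only at the last 2 stages. Hoxa5 was 2.58-fold lower (2.30 to 2.91) and Rdh10, which makes retinal, 2.17-fold lower (2.03 to 2.31). Aldh1a1, which makes retinoic acid from retinal, was the higher member, at 827 CPM in S3 and 317 CPM in S2 (2.61-fold, 2.54 to 2.68). Dhrs3, a retinal reductase, stood at 151 CPM in S3 and 276 CPM in S2, 1.83-fold lower (1.76 to 1.91).

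The Cyp26a1 promoter (chr19:37697558-37697857, plus strand, RefSeq on GRCm38.p6) is shown because it holds a direct repeat of the kind that retinoic acid receptors are known to bind, namely 2 copies of AGTTCA with 5 bases between them, here read on the other strand and in capitals. This motif was searched after the values were seen, and 8 of the 27025 promoters held it (0.0296%).
Cyp26a1: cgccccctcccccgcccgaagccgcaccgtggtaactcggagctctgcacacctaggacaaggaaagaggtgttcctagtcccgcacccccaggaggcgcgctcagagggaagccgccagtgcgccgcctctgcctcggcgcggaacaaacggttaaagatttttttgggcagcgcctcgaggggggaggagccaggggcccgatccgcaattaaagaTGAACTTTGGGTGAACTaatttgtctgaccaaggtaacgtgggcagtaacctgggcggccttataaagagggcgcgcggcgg

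Insulin transcripts were at or under the detection floor in both libraries. Ins1 had 0 reads in both, and Ins2 had 1 read in S3 and 0 in S2, where a floor of 3 reads corresponds to 0.128 CPM in S3 and 0.137 CPM in S2. The islet transcription factor Pdx1 had 1 read in S3 and 5 in S2, and Mafa had 15 in S3 and 12 in S2. Gcg, Sst, Ppy, Pyy, Iapp and Slc30a8 had 0 reads in both libraries, as had the transcription factor genes Neurog3, Nkx2-2, Pax4, Ptf1a and Rfx6. Transcripts of the genes with 0 reads in both libraries were not detectable at this depth.

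Of 24 listed islet hormone and granule genes, 7 were measured, of which 1 was higher and 0 lower. Chga, chromogranin A of secretory granules, had 53 reads in S3 and 5 in S2, 9.94-fold higher (4.0 to 31.9). Its S2 level of 0.228 CPM was under 1 CPM, so its direction was fixed once it was included. Cpe, a hormone-processing enzyme also made outside islets, stood at 500 CPM in S3 and 463 CPM in S2. Slc2a2, the glucose transporter of both hepatocytes and mouse beta cells, stood at 9.73 CPM in S3 and 1.55 CPM in S2, 6.29-fold higher (4.37 to 9.30), and was the only one of 13 measured glucose-sensing genes called. Of 9 measured islet transcription factors, Isl1 was lower with 3 reads in S3 and 22 in S2 (7.82-fold, 2.35 to 40.8), and it sat at the edge of the filter. Gata4 and Gata6, expressed in liver and mesothelium too, stood at 81.1 and 85.3 CPM in S3 against 78.1 and 104 CPM in S2.

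Metabolic and housekeeping lists showed few calls. All 13 mitochondrially encoded genes had ratios above 1, with a median of 1.80-fold and a summed level of 29874 CPM in S3 and 19693 CPM in S2, and 0 were called. mt-Co1, a subunit of cytochrome c oxidase, stood at 25340 CPM in S3 and 16861 CPM in S2, a ratio of 1.5 (1.5 to 1.51). The 45 nuclear genes of the respiratory chain had ratios between 0.770 and 1.16, also with 0 calls. The 40 ribosomal protein genes lay between 0.733 and 1.29. The 32 genes of the NRF2 oxidative stress response held 0 calls.

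Fatty acid genes gave a few calls, all of them higher, but most oxidation and PPAR target genes had ratios below 1. Of 26 measured genes of that list, 4 were higher and 0 lower, against 3.98% and 1.18% of all genes. They included Acot1 (3.03-fold, 2.50 to 3.70), Ucp2 (2.50-fold, 2.20 to 2.85) and Vnn1 (2.47-fold, 2.30 to 2.66). Cpt1a, which admits fatty acids to mitochondria, stood at 209 CPM in S3 and 280 CPM in S2. Of the 26, 8 had a ratio above 1, with a median log2 ratio of -0.22. The summed level of the list was 1545 CPM in S3 and 1732 CPM in S2. Of 24 synthesis and storage genes, 2 were higher, the desaturase gene Fads2, at 453 CPM in S3 and 192 CPM in S2 (2.35-fold, 2.27 to 2.44), and the elongase gene Elovl2 (4.39-fold, 2.54 to 8.08). Of 26 cholesterol genes, 1 was higher and 0 lower. The lactate exporter gene Slc16a3 was the only one of 27 glycolysis genes called (2.46-fold higher, 2.04 to 2.98). Of the 27, 8 had a ratio above 1, and their summed level was 6009 CPM in S3 and 7665 CPM in S2. The plasma antioxidant gene Gpx3 was 2.63-fold higher (2.24 to 3.11), the only call among 21 metal and selenoprotein genes.

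Stress genes differed in single members. Of 22 p53 targets, 3 were higher and 0 lower, and 19 had a ratio above 1. Gdf15, a stress-induced cytokine, stood at 54.9 CPM in S3 and 8.79 CPM in S2, 6.25-fold higher (5.37 to 7.31). Trp53inp1 stood at 1029 CPM in S3 and 435 CPM in S2, 2.37-fold higher (2.31 to 2.42), and the death receptor gene Fas was 2.71-fold higher (2.35 to 3.14). Of 25 genes of endoplasmic reticulum stress, Ddit3, which encodes the stress factor CHOP, was the only one called, at 30.3 CPM in S3 and 95.9 CPM in S2 (3.17-fold lower, 2.91 to 3.45).

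Set against the earlier stages, most of the higher genes had their minimum at S2. The 557 higher genes had a median of 13.4, 6.37, 3.28 and 13.3 CPM from S0 to S3, and S2 was the lowest stage for 328 of them and S3 the highest for 279. The 165 lower genes had a median of 4.46, 7.89, 12.4 and 3.37 CPM, with S2 the highest stage for 100 and S3 the lowest for 87. Because S2 is shared by every such comparison and chose these genes, an extreme value there is partly fixed by the choice, and these counts are a description.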

How the data were processed

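Total RNA of 4 culture stages was sequenced as 1 library per stage, from Trizol extracts and a stranded total RNA kit, per the labels' protocols. The submitters' processing notes list the build mm9 and the tool bcl2fastq. For aligner, counter, annotation and use of strand in counting, nothing is given in the sources used here, so reads of antisense genes and of close paralogs (Hist1, Serpina1, Saa, Cyp3a, Ces, Ugt2b) are uncertain. The authors deposited 2 tables per the file headers, whole-number counts and RPKM values, for the same genes. The ratio of the 2 tables was constant between S3 and S2 (0.955 over 9271 genes with at least 200 reads), and the counts were used.

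Counts were scaled with TMM factors over all 4 libraries (0.991 for S3 and 0.957 for S2; edgeR 4.0.16, R 4.3.3). The exact 95% Clopper-Pearson interval of the S3 share of reads gave the interval of each ratio, which covers counting error only, since reads without molecular identifiers are not independent molecules. A library with 0 reads was set at a floor of 3 reads, written as "at least" (0.128 CPM in S3, 0.137 CPM in S2). Python 3.11.15, numpy 2.4.6, pandas 2.3.3 and scipy 1.17.1 were used. In all, 8 alternatives were run, among them DESeq2 1.42.0 size factors.

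The members, the 43 gene lists (1217 genes) and the motifs were chosen with earlier results of these data known, and no list is independent evidence. Genes were named if among the 15 higher or 15 lower ones with an interval farthest from no change, and also from each list the 2 members with the most reads and the 2 higher and 2 lower members farthest out, plus a set of cell type, NAD, ERK and title genes. Any other gene named, including the further members that complete a list's count of higher, lower or 0-read genes (Ccna2, Crp, Ahsg, Apoe, Timp3 and Fgfr2 among them), was chosen after its values were seen. Promoters were taken from RefSeq (GRCm38.p6) by symbol, and shares are compared only for lists with at least 80% matched. A few genes that the rule names are not reported here.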

Additional observations from a re-analysis of the deposited data

How the results depend on the processing

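No paired analysis was possible because each stage is 1 library. The counts kept within 1.5 times of the reported values under scaling without TMM (602 higher, 148 lower, with 80.3% of calls higher against 77.1%), TMM over S3 and S2 alone (555 and 161), DESeq2 size factors (557 and 161), removal of mitochondrially encoded genes (558 and 164), a 5 CPM filter (427 and 111) and no CPM filter (581 and 192). They moved with the threshold itself, to 1088 higher and 496 lower genes at an interval beyond 1.5-fold and to 1053 and 493 with RPKM point estimates beyond 2-fold, which carry no interval. At 1.5-fold, 26 replication genes were higher and 19 plasma protein genes lower. Of the genes described here, Glul and Mirg lost their calls without TMM, and Isl1 fell under the filter there and with both other scalings. No called result changed sign under the 8 alternatives. Median log2 ratios within 0.1 of 0, as for NAD synthesis or PI3K genes, have no stable sign. Depth limits calls well above the floor of 3 reads too, since a call needs the whole interval beyond 2-fold. Aurka, with 314 reads in S3 and 123 in S2, was 2.39-fold higher (1.94 to 2.97) and was not called. With 1 library per stage, the spread between cultures is unknown.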

Other observations

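The following genes were chosen after their values were seen, and each was called higher unless said otherwise. Complement genes beside C3 and C4b were higher in S3. C1s1 and C1ra, the proteases of the first complement component, which are neighbours on chromosome 6, stood at 71.5 CPM in S3 and 11.6 CPM in S2 (6.18-fold, 5.41 to 7.08) and at 28.2 CPM in S3 and 11.9 CPM in S2 (2.37-fold, 2.05 to 2.75). Inhibitors of the same cascade were higher as well, with Cfi at 115 CPM in S3 and 33.5 CPM in S2 (3.43-fold, 3.16 to 3.72) and Serping1, the C1 inhibitor, at 28.4 CPM in S3 and 7.65 CPM in S2 (3.71-fold, 3.13 to 4.42). Notch pathway genes included the ligands Jag1, at 230 CPM in S3 and 75.2 CPM in S2 (3.06-fold, 2.90 to 3.24), and Jag2 (3.57-fold), the receptor Notch3 (3.69-fold) and the target Nrarp, with 56 reads in S3 and 5 in S2 (10.5-fold, 4.24 to 33.6). Secreted Wnt modulators beside Rspo1 included Frzb, at 105 CPM in S3 and 31.3 CPM in S2 (3.37-fold, 3.10 to 3.67), Sfrp1 (4.07-fold) and Dkk2 (4.67-fold). Mycn stood at 4.61 CPM in S3 and 0.364 CPM in S2 (12.7-fold, 6.20 to 30.1), and the matrix gene Ccdc80 at 617 CPM in S3 and 116 CPM in S2 (5.30-fold, 5.08 to 5.53).

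The following genes, also chosen after their values were seen, were lower. Krt20, a keratin of gut and urothelial epithelium, stood at 102 CPM in S3 and 295 CPM in S2, 2.90-fold lower (2.77 to 3.04). The integrin genes Itga6 and Itga2, whose products bind laminin and collagen, stood at 182 CPM in S3 and 407 CPM in S2 (2.24-fold lower, 2.16 to 2.33) and at 7.13 CPM in S3 and 23.7 CPM in S2 (3.32-fold lower, 2.78 to 3.98). Ckb, brain-type creatine kinase, stood at 297 CPM in S3 and 797 CPM in S2, 2.69-fold lower (2.61 to 2.76). The gastric and intestinal genes Ctse and Tff3 were 2.81-fold and 3.04-fold lower.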
